A study of Mus musculus with 2 samples.

Results

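Replication-dependent histone genes encode the linker histone H1 and the core histones H2A, H2B, H3 and H4. They lie in clusters, and 30 of them were compared between liver RNA of wild-type (WT) mice and of E4bp4-LKO mice, out of 22180 genes with values on the arrays. E4BP4, encoded by Nfil3, is a transcriptional repressor of the basic leucine zipper family. Members were the genes whose symbol in the older nomenclature begins with Hist1h to Hist4h, taken only from probe sets that the platform annotation assigns to a single gene. The annotation uses the newer symbols and held 0 of the older ones, so the older symbols were found through Entrez identifiers in the RefSeq gene table. The 30 genes were covered by 32 probe sets and comprised 5 H1, 8 H2A, 9 H2B and 8 H4 genes, among them the pseudogenes H2af-ps2 and H2bu1-ps.

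For each genotype, liver RNA of male mice was pooled and read on 1 array. Both the WT and the E4bp4-LKO mice had eaten a high-fat diet for 12 weeks, starting when they were 2 months old. The series title describes the second genotype as E4bp4 deficiency. The sources used here do not give the cells in which E4bp4 was deleted, the driver of the deletion, the size of each pool or the hour at which livers were taken. With 1 array per genotype there was no replicate error and no test of genotype, and each difference below subtracts the WT value from the E4bp4-LKO value on the log2 scale and describes these 2 pools. All 10 hepatocyte markers checked against the liver label were well measured, and Alb, encoding albumin, lay at 12.77 on both arrays. The targeted gene Nfil3 was at 5.94 on the WT array and 4.47 on the E4bp4-LKO array, a difference of -1.47.

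Histones package DNA into nucleosomes, in which DNA wraps around an octamer of core histones and H1 binds the linker DNA. Most clustered histone genes are transcribed in S phase, when new DNA must be packaged, and their messenger RNAs end in a stem-loop bound by SLBP instead of a poly(A) tail. Many, but not all, replacement and variant histones from genes outside the clusters are made throughout the cell cycle, which matters in a mostly non-dividing tissue such as liver. Some clustered genes, such as H1f2 and H2bc21, are also known to give polyadenylated transcripts in differentiated cells. The labelling kit used here primes along the whole transcript, so transcripts without a poly(A) tail can be measured.

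The promoters of 5 of the 7 members with a usable signal on both arrays are shown first. H1f2 and H2ac10 were lower on the E4bp4-LKO array, H4c12 was higher, and H4c9 and H2bc3 differed little. The signal of H2bc3 was barely usable. The window of H2ac20, which also had a usable signal, is not shown. The sequences are the 250 bases before each annotated start, from RefSeq on build GRCm38.p6, written 5′ to 3′ on the strand of the gene. They lie at chr13:23738557-23738806 (H1f2, plus strand), chr13:23533625-23533874 (H2ac10, plus strand), chr13:21750554-21750803 (H4c12, minus strand), chr13:22041363-22041612 (H4c9, minus strand) and chr13:23746484-23746733 (H2bc3, plus strand). Capitals mark matches on either strand to the TATA box TATAAA, the CCAAT box CCAAT, the octamer ATGCAAAT known from H2B promoters, the H1 box AAACACA known from H1 promoters, and 4 forms of the E2F site (TTTCCCGC, TTTGGCGC, TTTCGCGC and TTTGCCGC), E2F being the factor family that drives S phase genes.
H1f2: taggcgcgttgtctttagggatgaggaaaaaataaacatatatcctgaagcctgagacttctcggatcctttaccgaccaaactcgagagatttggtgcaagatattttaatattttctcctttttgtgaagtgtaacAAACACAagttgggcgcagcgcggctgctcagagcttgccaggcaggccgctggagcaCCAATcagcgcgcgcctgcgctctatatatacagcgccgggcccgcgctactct
H2ac10: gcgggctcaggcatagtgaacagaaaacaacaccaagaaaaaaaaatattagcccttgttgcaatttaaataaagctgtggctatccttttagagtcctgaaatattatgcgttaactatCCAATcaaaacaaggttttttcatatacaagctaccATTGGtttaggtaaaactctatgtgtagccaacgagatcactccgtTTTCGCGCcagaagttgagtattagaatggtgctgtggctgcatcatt
H4c12: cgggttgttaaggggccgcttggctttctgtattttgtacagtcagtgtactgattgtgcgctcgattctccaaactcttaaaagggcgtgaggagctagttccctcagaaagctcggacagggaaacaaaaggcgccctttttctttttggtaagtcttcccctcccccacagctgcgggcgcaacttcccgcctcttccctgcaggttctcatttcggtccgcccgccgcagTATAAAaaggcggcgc
H4c9: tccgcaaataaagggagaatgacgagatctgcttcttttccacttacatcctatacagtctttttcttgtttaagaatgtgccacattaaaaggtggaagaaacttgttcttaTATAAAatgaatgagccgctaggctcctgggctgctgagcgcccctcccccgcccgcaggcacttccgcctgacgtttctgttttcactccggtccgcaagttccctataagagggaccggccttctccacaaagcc
H2bc3: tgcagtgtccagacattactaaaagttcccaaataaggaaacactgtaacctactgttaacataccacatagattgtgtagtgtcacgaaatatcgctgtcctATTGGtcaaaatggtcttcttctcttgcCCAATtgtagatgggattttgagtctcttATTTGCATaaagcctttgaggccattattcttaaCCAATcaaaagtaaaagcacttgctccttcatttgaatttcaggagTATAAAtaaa

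In these windows the H1f2 promoter held an H1 box from -112 to -106 and a CCAAT box from -54 to -50, counted from the annotated start. The H2ac10 promoter held 2 CCAAT boxes and, from -48 to -41, the E2F form TTTCGCGC. The H2bc3 promoter held the octamer on the minus strand from -90 to -83, 3 CCAAT boxes and a TATA box. In H4c12 and H4c9 only a TATA box matched, from -16 to -11 and from -137 to -132.

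RefSeq promoter windows were available for 26 of the 30 members. The CCAAT box was found in 20 of the 26 (76.9%), against 33.8% of all 32851 promoter windows of the same length, and the TATA box in 13 of the 26, against 12.4%. The octamer was found in 9 members (34.6%), against 1.60% of all windows. These 9 were H2A or H2B genes. The H1 box was found in 7 (26.9%, against 6.25%), 4 of them H1 genes, and an E2F form in 4 (15.4%, against 1.86%). The D-box, the element bound by E4BP4 and the PAR bZIP activators, was searched as TTATGTAA and TTACGTAA and was found in 0 of the 26, against 0.931% of all windows. That count says only that these letters are not in these windows. No 2 matches in a member overlapped. Members with overlapping windows (H2ac12 with H2bc12, H2ac1 with H2bc1) hold some of the same sites, so the 9 members with an octamer have 7 distinct sites, and the 7 with an H1 box have 6.

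Most members gave little signal. To separate measurable genes from background, the median over all genes of their mean level on both arrays (4.20, log2) served as a floor, which places 11090 genes, or 50% of all, above it by construction. Of the 30 histone genes, 7 (23.3%) lay above the floor. These were H1f2, H2ac10, H2ac20, H2bc3, H2bc21, H4c9 and H4c12, and all 7 were above it on each array. Below the floor, background and transcript cannot be separated, so the other 23 members are described by their values only. In bulk liver RNA, fewer cells of a type and less RNA per cell cannot be told apart.

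On the E4bp4-LKO array, 2 of these 7 histone genes were lower by 1.5-fold or more and 0 were higher by as much. Across the whole array, 2.06% of the genes above the floor were lower by that much and 1.51% were higher. The median difference of the 7 was -0.16 (range -0.92 to 0.48), against -0.023 for all genes above the floor. Negative differences numbered 4 and positive differences 3, against 6045 and 5043 of the 11090 genes above the floor. The sign of this median depended on the floor: it was 0.061 over 17 members with a floor at the 25th percentile and 0.050 over all 30 with no floor. With shared probe sets added it was -0.0089, or 0.016 with repeated probe sets counted once, over 20 genes. These 20 are not separate readings, since 14 were H2B genes and a shared probe set can list 12 H2B genes. As a gauge of measurement scatter only, the 555 genes above the floor that have 2 probe sets gave differences with a within-gene SD of 0.22. The central 95% of differences above the floor ran from -0.54 to 0.49. The count of 2 was 1 at a floor on the 75th percentile, where H2ac10 was below the floor, and 0 at a threshold of 2-fold. Over all genes above the floor, 1.30% and 0.41% were lower at these settings.

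H2ac10, a core H2A gene, had the largest difference among the members. It was at 6.13 on the WT array and 5.21 on the E4bp4-LKO array, a difference of -0.92 or 1.90-fold, and 0.460% of the genes above the floor had a more negative difference. H2A genes are nearly identical in their coding sequence, and H2ac10 is also among 12 genes listed for another probe set, which read 7.13 on the WT array and differed by -0.13. When that shared probe set was averaged with the gene's own, the difference of H2ac10 was -0.53, short of 1.5-fold. It was -0.39 when a second probe set with the same genes and identical values was counted as well. The value of H2ac10 as a single gene is therefore uncertain.

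H1f2, which encodes the linker histone H1.2, was at 6.61 on the WT array and 5.96 on the E4bp4-LKO array. The difference was -0.65, or 1.57-fold, and 1.54% of the genes above the floor had a more negative one. No shared probe set lists H1f2, which has 1 probe set of its own, so most alternatives could not change its value. Centring the differences or removing the intensity trend gave -0.63. This does not gauge scatter between arrays. The other 4 H1 members were below the floor and differed by between -0.07 and 0.06. Their values were 3.42 and 3.34 for H1f1, 2.87 and 2.89 for H1f3, 1.71 and 1.77 for H1f5, and 3.19 and 3.25 for H1f6, the testis H1, on the WT and E4bp4-LKO arrays. H1f2 was thus the only H1 member with a measurable level, and the plot of member values shows the other 4 well to the left of the floor. RefSeq lists 6 clustered H1 genes, and 1 had no probe set of its own. That gene was listed only on a probe set shared with H2B genes, at 4.10 and 3.84, so its level was not assessed.

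The remaining H2A and H2B genes above the floor differed by less than the scatter between probe sets. H2ac20, an H2A gene of the chromosome 3 cluster, was at 4.58 on the WT array and 4.67 on the E4bp4-LKO array. H2bc21, its neighbour, was at 4.24 and 4.28. H2bc3, an H2B gene of chromosome 13, was at 4.36 and 4.20. Their differences were 0.09, 0.04 and -0.16, and all 3 lay close to the floor on both arrays. H2aw, an H2A gene of chromosome 11, crossed it, from 3.95 on the WT array to 4.36 on the E4bp4-LKO array, a difference of 0.41.

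Of the 8 H4 genes, which all encode the same core histone, 6 had a positive difference, against 10566 of all 22180 genes. H4c12 was at 6.16 on the WT array and 6.64 on the E4bp4-LKO array, a difference of 0.48 or 1.39-fold, which lies within the central 95% of genes above the floor. With shared probe sets added, its difference was 0.11, but the 4 distinct shared probe sets that list H4c12 were all below the floor. The mean of H4c12 then also lay below the floor. H4c9 was at 6.47 and 6.30, a difference of -0.17, so the 2 H4 genes above the floor differed in opposite directions. Below the floor, 5 of 6 H4 genes were higher on the E4bp4-LKO array, against 5523 of all 11090 genes there. The median of the 6 H4 genes was 0.42. H4c14 was the furthest apart, at 2.90 and 3.51 (0.62). H4c8 was at 2.91 and 3.46, H4c17 at 1.87 and 2.28, and H4f16, the mean of 2 probe sets, at 3.65 and 4.08. The probe sets of H4f16 differed by 0.63 (2.70 and 3.33, below the floor) and 0.24 (4.59 and 4.83, above it). With the brightest probe set of each gene, H4f16 lay above the floor. The median of the histone genes above the floor was then -0.059 over 8 genes. H4c1 (0.01) and H4c2 (-0.19) completed the class. For all genes below the floor, the central 95% of differences ran from -0.48 to 0.47. The 5 probe sets that list several H4 genes had differences from -0.26 to 0.27.

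Among the 23 members below the floor, 16 had a positive and 7 a negative difference, against 5523 and 5565 of all 11090 genes there. The median of the 23 was 0.06, against -0.00079 for all genes there. At least 1.5-fold lower was 1 member, H2ac1, where 1.23% of all genes below the floor were, and at least 1.5-fold higher was 1, H4c14, where 1.15% were. H2ac1 is a testis H2A and was at 3.57 on the WT array and 2.82 on the E4bp4-LKO array (-0.75). H2bc1, the testis H2B transcribed away from it, was at 1.99 and 2.36 (0.37). These 2 genes share 220 bases of their 250-base promoter windows. Of 6 germ cell genes with their own probe set, 4 lay below the floor (Ddx4, Dazl, Tnp1 and Prm1), and Tnp2 (4.32 and 4.53) and Acr (4.03 and 4.46) lay near it, with differences of 0.22 and 0.42. The plot of member values by class shows these levels gene by gene.

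**Figure D1:**
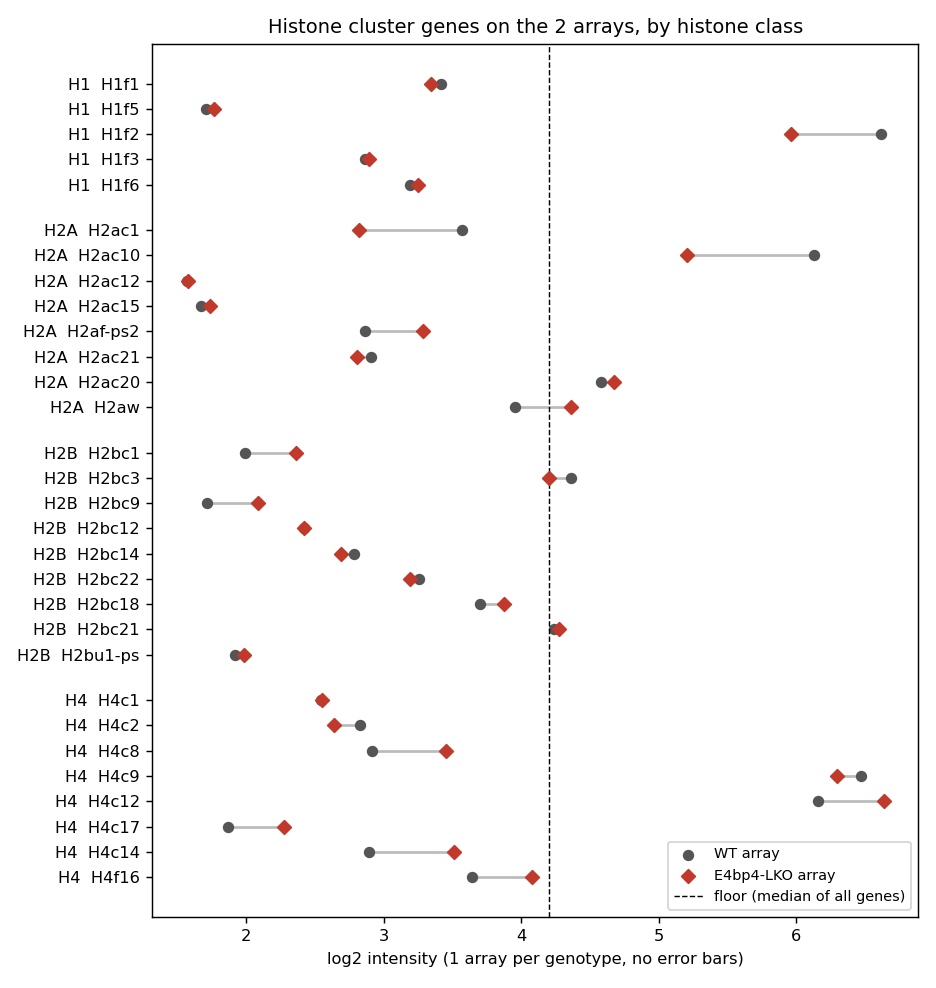
Log2 intensity of the 30 histone cluster genes on the WT array (grey circles) and the E4bp4-LKO array (red diamonds), grouped by histone class, with the floor of 4.20 as a dashed line. The 7 genes whose mean was above the floor lie to the right of it on both arrays; H1f2 and H2ac10 were lower and H4c12 was higher on the E4bp4-LKO array.

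Most members lie on chromosome 13, where RefSeq lists 56 histone genes under the older nomenclature, 22 of them members. Neighbours in that order did not always share a direction. H2ac10, with a difference of -0.92, is next to H4c8, with 0.54. H2ac12 (0.0076) and H2bc12 (-0.0054), neighbours that share 177 bases of their promoter windows, both lay below the floor and differed little, and the next gene, H4c9, differed by -0.17. The median of the 5 members of chromosome 13 above the floor was -0.17. The 2 above the floor on chromosome 3 were H2ac20 and H2bc21, given above, and the members of chromosomes 6 and 11 were below it.

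**Figure D2:**
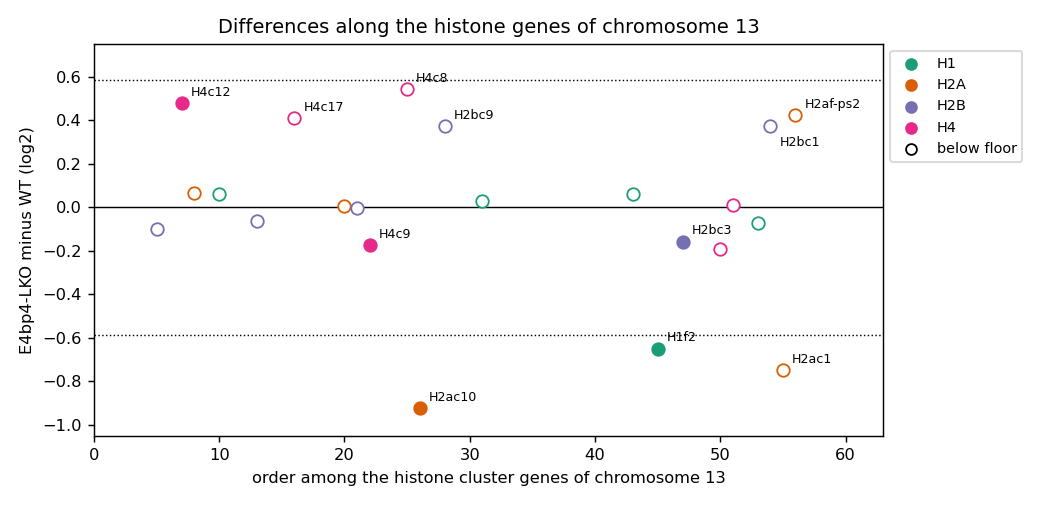
Difference of E4bp4-LKO minus WT (log2) for the 22 members on chromosome 13, plotted by their order among the histone genes of that chromosome and coloured by class; open circles are genes below the floor and dotted lines mark 1.5-fold. The 2 filled points under the lower line are H2ac10 (-0.92) and H1f2 (-0.65), and adjacent genes lie on either side of 0.

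Because the histone coding sequences are so alike, 39 further histone genes were covered only by probe sets that list several genes, including all 12 H3 genes, and H2ac14 by none. These probe sets cannot be assigned to a gene, and those listing equal numbers of genes of a class differed widely in level. On the WT array, those listing 8 H3 genes read from 1.79 to 7.08. Those listing 10 H2A genes read from 2.32 to 6.72, and those listing 13 H4 genes from 2.35 to 3.93. The reading of a single probe set is therefore not the level of its group. There were 38 probe sets listing several histone genes, of which 35 had distinct values. Of the 35, 10 were above the floor, and none of these differed by 1.5-fold, the range being -0.13 to 0.31 and the median -0.027. Over all genes above the floor, 2.06% were lower and 1.51% higher by 1.5-fold or more. A probe set listing 3 H2B genes read 10.69 on the WT array and 10.67 on the E4bp4-LKO array. A probe set listing 3 H2A genes read 9.48 and 9.46. The H3 probe set above the floor, which lists 8 genes, read 7.08 and 6.95. The largest difference above the floor belonged to a probe set listing 4 H2B genes, at 8.86 and 9.17. A second probe set listing the same number of H2B genes was higher by 0.77, at 3.50 and 4.27, with its mean below the floor. Of the 30 members, 16 are also listed on such probe sets, including 4 of the 7 above the floor (H2ac10, H2ac20, H4c9 and H4c12).

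**Figure D3:**
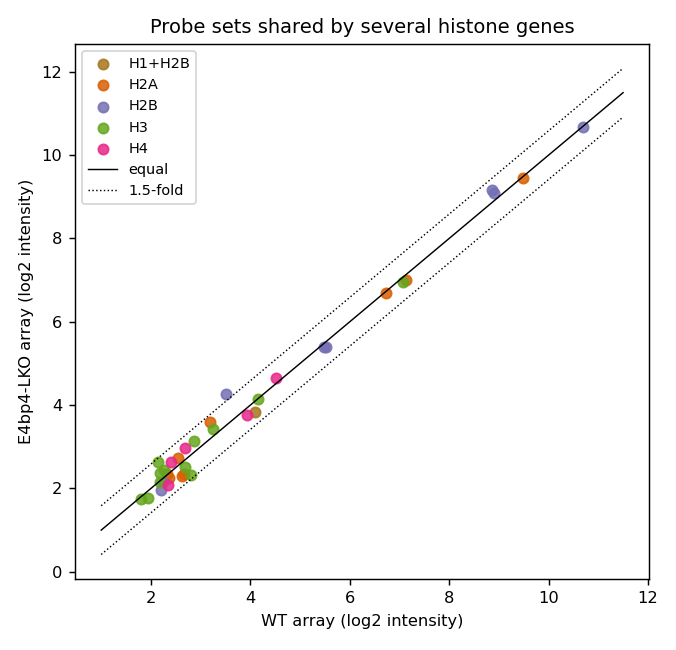
Log2 intensity on the WT array (x axis) and the E4bp4-LKO array (y axis) of the 35 distinct probe sets that list several histone genes, coloured by class, with the line of equal values and dotted lines at 1.5-fold. The 10 probe sets above the floor of 4.20 lie between the dotted lines; an H2B probe set at 3.50 and 4.27 is above the upper line.

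Replacement and variant histones were compared from a list of 14 genes, of which 10 had their own probe set and 6 were above the floor. The 10 did not include H1f0 or the H3 replacement genes H3f3a and H3f3b (older symbols), so replacement histones were assessed only in part. None of the 6 was at least 1.5-fold apart in either direction, and their median difference was -0.15 (0.017 over all 10 with no floor). Over all genes above the floor, 2.06% were lower and 1.51% higher by as much, so this count is near that share. H2az1, encoding H2A.Z, differed by -0.33 (5.32 and 4.99), Cenpa, the centromeric H3, by -0.20 and H2ax, the H2A that is phosphorylated at DNA breaks, by -0.15. Macroh2a1 differed by -0.15, H2aj by 0.08 and H2az2 by 0.21. Macroh2a2 was higher by 1.03, from 2.83 to 3.86, below the floor on both arrays.

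Of the genes that make and process histone messenger RNA, none reached a 1.5-fold difference. Of 20 above the floor, 0 were 1.5-fold apart in either direction, 13 differences were negative and the median was -0.09. That count of 0 is near the share over all genes above the floor, 2.06% lower and 1.51% higher. Of all 11090 genes above the floor, 6045 had negative differences. Slbp, the stem-loop binding protein gene, was at 6.54 on the WT array and 6.45 on the E4bp4-LKO array. Npat, the coactivator of histone genes that cyclin E-CDK2 phosphorylates, was at 6.15 and 5.80 (-0.35). Lsm11, a subunit of the U7 particle that cuts the 3′ end, had the largest difference, at 4.58 and 4.02 (-0.56). Its E4bp4-LKO value was below the floor. Ccna2, the cyclin A of S phase, differed by -0.42 and the core Sm protein gene Snrpd3 by 0.30.

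Histone chaperones likewise had 0 of 19 genes 1.5-fold apart in either direction, again near the 2.06% lower and 1.51% higher over all genes. Their median was -0.012, which turned positive (up to 0.034) under 3 alternatives. Chaf1b, a subunit of chromatin assembly factor 1, was at 5.35 and 4.88 (-0.47), and Asf1b, an H3-H4 chaperone of dividing cells, at 4.74 and 4.36 (-0.38). Nap1l1, an H2A-H2B chaperone, was at 7.64 and 7.21 (-0.44). Rbbp4, another subunit of chromatin assembly factor 1, differed by 0.17, as did Nasp, and Asf1a, the paralog of Asf1b, by 0.18.

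The DNA synthesis list had mostly negative differences. Above the floor were 21, of which 8 were lower by 1.5-fold or more and 1 was higher by as much, against the 2.06% and 1.51% of all genes. The median difference was -0.39. Uhrf1, which couples DNA methylation to replication, was at 5.26 and 4.14 (-1.13), with its E4bp4-LKO value below the floor. The replicative helicase gene Mcm4 was at 6.45 and 5.48 (-0.97), and Rrm1, a subunit of ribonucleotide reductase, at 7.03 and 6.25 (-0.79). Cdt1, which loads the helicase, differed by -0.90, and Mcm2, Mcm3, Mcm5 and Mcm6 by between -0.93 and -0.77. Tk1, the thymidine kinase gene, was the member higher by 1.5-fold, at 6.41 and 7.06 (0.66), and Pcna, the sliding clamp of the polymerases, differed by -0.14. The mitosis list had 13 genes above the floor. All 13 differences were negative, 4 of them by 1.5-fold or more, and the median was -0.46. Over all 11090 genes above the floor, 6045 were negative, and 2.06% were lower by 1.5-fold or more. Mki67, the proliferation marker, was at 6.18 and 5.43 (-0.75).

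Set beside these values, 4 of the 7 histone genes above the floor had negative differences, near the share over all genes there, 6045 of 11090. Of the DNA synthesis list, 17 of 21 genes above the floor had negative differences. The difference between the lists was not tested.

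**Figure D4:**
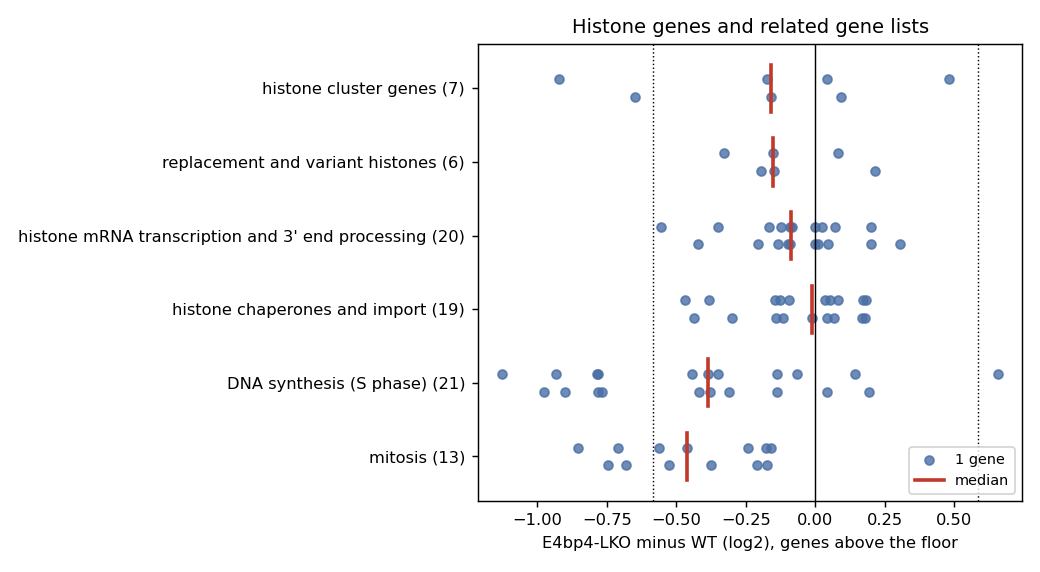
Difference of E4bp4-LKO minus WT (log2) of each gene above the floor (blue points) with the median of each list (red bars) and dotted lines at 1.5-fold. The medians were -0.16 for the 7 histone cluster genes, -0.15 for replacement histones, -0.09 for messenger RNA synthesis and processing, -0.012 for chaperones, -0.39 for DNA synthesis and -0.46 for mitosis.

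Markers of other liver cell types were measured beside the histone genes, since dividing non-hepatocytes could hold histone transcripts. All 10 stellate cell markers had lower values in the E4bp4-LKO pool, against 6045 of all 11090 genes above the floor. The summed linear intensity of these markers was 0.760 times that of WT. Of the 10, 3 were lower by at least 1.5-fold (Col3a1 -1.15, Col1a1 -1.01, Lum -0.69), against 2.06% of all genes above the floor. Macrophage markers summed to 2026 on the WT array and 2031 on the E4bp4-LKO array, with 5 of 10 higher, Gpnmb at -1.98 and Trem2 at -0.67. The E4bp4-LKO value of Gpnmb, 4.06, was below the floor. Relative to WT, the sums were 0.870 for endothelial markers (7 of 8 lower), 1.13 for T and NK cell markers, 1.06 for hepatocyte markers and 1.08 for B and plasma cell markers. The T cell marker Cd4 (0.66) and the hepatocyte marker Foxa3 (0.63) were higher by at least 1.5-fold, as were 1.51% of all genes above the floor. Below the floor were 5 of 10 T and NK cell markers and 4 of 7 B and plasma cell markers, so these sums are partly background. Without Jchain, which differed by 0.63, the B and plasma cell sum was 0.961. Their part in the values of H1f2, H2ac10 and the DNA synthesis genes was not tested.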

How the data were processed

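Liver RNA pooled by genotype was measured on 2 Affymetrix mouse arrays, 1 per genotype, per the labels. Values were deposited as log2 intensities, with a value for each probe set and array. The submitters' processing notes name RMA and R 3.4.0. RMA corrects background, equalises distributions by quantiles and compresses the differences of genes near background. The medians were 3.74 (WT) and 3.75 (E4bp4-LKO), and genes correlated at r = 0.993 between arrays; genes are not independent replicates.

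Of 41345 probe sets, 23521 had 1 gene symbol, 1814 several and 16010 none. Probe sets of a gene were averaged with Python 3.11.15 and pandas 2.3.3, and the counting was tested on simulated data. With 1 array per group, no test was made and the number of arrays limits the precision.

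All histone members could be named. From the other lists, genes at least 1.5-fold apart, up to 4 others with the largest difference, and Slbp, Npat, Pcna and Mki67 could be named; neighbouring members and the germ cell, Asf1a, Nasp, Rbbp4, Alb and remaining replacement histone values were chosen after their values were seen. The members and lists were chosen with earlier results of these data known. Erythroid markers had 3 of 9 genes with their own probe set and 1 above the floor (Klf1, -0.11).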

Additional observations from a re-analysis of the deposited data

How the results depend on the processing

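No paired analysis was possible because each genotype has 1 array. The count of histone genes at least 1.5-fold lower was 1 with a floor at the 75th percentile and 1 with shared probe sets added (H1f2 in each case). No histone gene was lower at a 2-fold threshold. Over all genes above the floor, the shares lower at these 3 settings were 1.30%, 1.93% and 0.41%. The count at least 1.5-fold higher was 1 with a floor at the 25th percentile and 1 with no floor (H4c14 in each case). Over all genes, 1.46% and 1.33% were higher at these settings. When the threshold was lowered to 1.2-fold, 1 gene was higher (H4c12), as were 10.6% of all genes above the floor. The median of the H1 genes was -0.074 with the lower floor and reversed to 0.027 with no floor; the H2A median was 0.091 and 0.036 under these settings and -0.020 with shared probe sets; the H4 median was 0.48 and 0.42. These class medians rest on 1 or 2 genes above the floor, and a lower floor adds genes. With shared probe sets the median of replacement histones was 0.081, and with the higher floor that of DNA synthesis was -0.14 over 3 genes. H2ac10 was -0.39 and H4c12 was 0.11 with shared probe sets. Those that list H4c12 were all below the floor. Counting repeated shared probe sets once, an alternative chosen after seeing the data, left 1 histone gene lower, an H2A median of -0.020, a replacement histone median of 0.081, H2ac10 at -0.53 and H4c12 at 0.11. Medians near 0 also turned sign: all histone genes (-0.16) to 0.061 with the 25th percentile floor, 0.050 with no floor and 0.016 with repeats counted once; H2B genes (-0.059) to 0.041, 0.0041 and 0.046 with no floor, shared probe sets and repeats counted once; replacement histones (-0.15) to 0.017 with either lower floor; and chaperones (-0.012) to 0.034 with the higher floor and 0.011 with centring or the trend removed. No H3 median was obtained, and no H4 median with shared probe sets, since no gene of the class then lay above the floor.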

Other observations

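Histone variants of the male germ line outside the clusters formed a group chosen after the values were seen, with 12 genes on their own probe sets (H1f7, H2ab1, H2ab2, H2ap, H2bfm, H2bl1 and 6 H2al genes). Of the 12, 11 lay below the floor, and the differences ran from -0.74 to 0.22 with a median of -0.13. H2al1m was above it, at 4.69 on the WT array and 4.22 on the E4bp4-LKO array (-0.47). H2ab2, encoding an H2A.B variant, was the only member at least 1.5-fold apart, at 4.25 and 3.51.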
